A study of Mus musculus with 4 samples.

Results

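Kinesins and tubulins were followed in RNA sequencing of whole mouse testis, as the 65 rows of a 49492-row gene count table whose symbols belong to the kinesin motors, the kinesin light chains, or the alpha, beta, gamma, delta and epsilon tubulins. The symbol pattern matched 71 rows, and 6 pseudogene or antisense rows were set aside. The 65 members were 41 kinesin motors, 4 light chains, 19 tubulins and Kif1bp, which carries a Kif symbol but encodes a protein that binds kinesins and is no motor. All 65 are protein-coding genes in GENCODE mouse release M21 (GRCm38, the assembly also called mm10), and their coordinates are given here as the count table has them, in mm10.

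By the labels, every library came from the testis of a male C57BL/6J mouse given LPS (lipopolysaccharide, a component of the outer membrane of Gram-negative bacteria). The groups were 2 libraries with a hairpin against Spry1 (shSpry1, genotype Spry1 knockdown) and 2 with a control hairpin (shControl, genotype WT). Spry1 encodes a protein that dampens growth factor receptor signalling, and the design text names the comparison of knockdown and wild-type testes as its purpose. The count columns are headed LPS 1, LPS 2, NC 1 and NC 2. NC is taken here to mean the control hairpin and LPS the knockdown, a reading of names and no exact match, since every title contains LPS. The groups keep their headings below, as LPS columns and NC columns, and if the headings mean LPS against no LPS, the differences belong to that contrast. The sources used here do not say how the hairpin was delivered, which cells it reached, how old the mice were or whether libraries came from separate animals, so a p-value here reflects the spread among 4 libraries, which may be technical.

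Microtubules are hollow polymers of tubulin dimers, each made of an alpha and a beta chain, and kinesins are motors that use ATP to walk along them or to take them apart at their ends. Gamma-tubulin starts new microtubules, while delta- and epsilon-tubulin belong to centrioles. In the testis, microtubules build the meiotic spindle of spermatocytes, the manchette that shapes the spermatid head, the axoneme of the sperm tail, and the tracks along which Sertoli cells move spermatids. Kinesin-2 motors carry cargo during growth of the tail, and several kinesins and tubulins are expressed chiefly in male germ cells.

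Libraries held 17612342 to 22451132 counts. A count of 0 in a library allows at most 0.136 to 0.168 CPM (counts scaled to the TMM-adjusted library size, taking 3 counts as the floor), and this floor covers counting error only. The 95% intervals of log2 fold changes given below come from the edgeR fit and include the spread between libraries. Members took 0.806% and 0.822% of counts in the LPS columns and 0.840% and 0.839% in the NC columns. Counts of Spry1, the targeted gene, were 26 and 17 in LPS 1 and LPS 2 and 45 and 41 in NC 1 and NC 2. The columns were assigned by their headings, with these counts known from earlier results. Some markers of the cell types of the testis differed between the groups. Below, rose and fell mean called by edgeR in the fit used for members, and of all genes tested 15.2% rose and 16.3% fell. Elongating spermatid markers fell in 6 of 8 genes and rose in 0, with a summed level of 16024 to 16370 CPM in the LPS columns and 22201 to 23052 CPM in the NC columns. Such sums are led by the most abundant genes of each list. Here Prm2 alone had group means of 6503 CPM in the LPS columns and 10485 CPM in the NC columns. Round spermatid markers fell in 6 of 8 and rose in 1, with sums of 1580 to 1643 CPM against 1695 to 1705 CPM. Sertoli cell markers rose in 4 of 9 and fell in 1, with sums of 921 to 932 CPM against 697 to 702 CPM. Most of these sums came from Clu, with group means of 769 CPM against 560 CPM, and Wt1, Gata4, Fshr and Amh were not called. Peritubular and smooth muscle markers rose in 4 of 6 and fell in 1, with sums of 462 to 465 CPM against 421 to 434 CPM. Spermatocyte markers rose in 3 of 8 and fell in 1, with sums of 878 to 964 CPM against 925 to 928 CPM. Spermatogonial markers rose in 3 of 7 and fell in 0, with sums of 103 to 114 CPM against 76.0 to 83.7 CPM. No marker of these 6 lists was at 0 in any library. Leydig cell markers fell in 4 of 7 and rose in 1 (sums 414 to 477 CPM against 781 to 815 CPM), and macrophage markers rose in 3 of 6 and fell in 2 (49.8 to 54.7 CPM against 38.6 to 41.8 CPM). Endothelial markers rose in 2 of 5 tested and fell in 1 (23.4 to 26.3 CPM against 20.9 to 26.0 CPM). Neuron and nerve markers fell in 2 of 4 tested and rose in 0 (29.1 to 29.5 CPM against 33.5 to 35.2 CPM). Genes of this list differed in level. Gap43 was at 0 in 3 libraries, while Nefh had 21.8 and 21.9 CPM against 26.3 and 25.5 CPM. Elavl4 had 4.62 and 4.70 CPM against 4.50 and 3.95 CPM. The part of these shifts in the member differences given below was not tested, and in whole tissue fewer cells of a type and less RNA per cell cannot be told apart.

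Promoter sequence was available for 52 of the 65 members (56 windows from 250 bases before to 50 bases after a RefSeq start site, build GRCm38.p6). The windows were searched on both strands for short motifs, of which the CRE and the X-box core are shown because CREM and RFX2, factors that bind such elements, are known for their roles in spermatid gene expression. The palindromic cAMP response element (CRE, TGACGTCA) was in 5 of the 56 member windows, 8.93%, and in 1.79% of all 32851 windows. These shares, and those of the other motifs below, were not matched for base composition. Of the 5 genes with the CRE, Kif17, Kif5c and Tubb2a were lower in the LPS columns, Klc1 was higher and Kif18a was not called. The stretches around the element follow, 5′ to 3′ on the strand of the gene, with the element in capitals.
Kif17: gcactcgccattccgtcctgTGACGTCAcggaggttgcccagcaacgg
Kif5c: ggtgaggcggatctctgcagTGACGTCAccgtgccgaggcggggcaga
Tubb2a: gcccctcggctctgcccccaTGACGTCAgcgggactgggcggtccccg
Klc1: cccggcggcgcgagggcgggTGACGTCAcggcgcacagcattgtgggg
Kif18a: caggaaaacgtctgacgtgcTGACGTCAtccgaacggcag
The stretches lie at chr4:138262145-138262192, chr2:49619240-49619287, chr13:34078040-34078087, chr12:111758815-111758862 and chr2:109280748-109280787, and the element began at -86, -26, -59, -33 and 31 relative to the start site. The Kif17 window belongs to a start site inside the gene span of the count table.

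The X-box core (GTTGCC) was in 14 of the 56 member windows, against 12.5% of all windows. It was in 6 of 16 windows of members lower in the LPS columns, 1 of 7 windows of members that were higher, and 7 of 30 windows of members not called. The stretches of the called genes follow in the same form. Tuba8 matched on the opposite strand and therefore reads GGCAAC.
Kif9: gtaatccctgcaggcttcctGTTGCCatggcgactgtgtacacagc
Kif17: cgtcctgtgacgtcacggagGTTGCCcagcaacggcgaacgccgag
Klc3: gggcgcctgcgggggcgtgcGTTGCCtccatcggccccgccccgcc
Kif16b: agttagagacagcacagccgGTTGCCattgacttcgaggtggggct
Tuba8: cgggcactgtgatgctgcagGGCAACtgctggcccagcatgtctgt
Kif3c: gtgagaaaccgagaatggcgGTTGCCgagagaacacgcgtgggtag
They lie at chr9:110476947-110476992, chr4:138262158-138262203, chr7:19404194-19404239, chr2:142901664-142901709, chr6:121210678-121210723 and chr12:3364936-3364981. Kif9 has 2 overlapping windows that hold the same match, at 10 and -27. In Kif17 the CRE and the X-box core stand next to each other, at -86 and -73. Of the other motifs searched, the cell cycle element CHR (TTTGAA) was in 28.6% of member windows and 17.9% of all windows, and the CCAAT box (CCAAT) in 28 of the 56 member windows and 37.4% of all. The GC box (GGGCGG) was in 62.5% and 35.7%, and the NF-kB consensus in 3.57% and 8.46%. A match describes the letters of a window and shows no bound factor.

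Levels differed over more than 3 orders of magnitude between members. Per kilobase of exon, the mean level over the 4 libraries ran from 0.129 CPM per kilobase for Kif26b to 724 CPM per kilobase for Tuba3a, with a median of 9.45 CPM per kilobase over the 62 members that passed the filter on low counts. The most abundant were the testis alpha-tubulins Tuba3a and Tuba3b (471 CPM per kilobase), the axonemal beta-tubulin Tubb4b (437 CPM per kilobase) and the spindle depolymerase Kif2b (252 CPM per kilobase). They were followed by Kif27, a kinesin of motile cilia (130 CPM per kilobase), Kif17, a kinesin-2 motor of sperm cells and neurons (105 CPM per kilobase), Kif3b (83.8), Kif3a (83.1), Kif9 (80.4), Tuba8 (74.0), Kif2c (62.1) and the light chain Klc2 (51.0). In this order the library ranges of Tuba3b and Tubb4b overlapped, and from Kif3b through Kif3a, Kif9, Tuba8 and Kif2c each neighbour overlapped the next. Tuba3a, Tuba3b and Tubb4b together took 33.8% to 34.8% of member counts in every library. The members that were not tested were Kif12, a kinesin of liver and kidney with 0 counts in all 4 libraries, the platelet beta-tubulin Tubb1 with 1 and 0 counts in the LPS columns and 0 and 3 in the NC columns, and the neural beta-tubulin Tubb4a with 2 and 0 against 4 and 2. These 3 did not pass the filter on low counts, so whether they differed between the groups was not tested. Exons of 22 members overlap those of another gene, and 21 members share over 10% of their 50-base words with other genes, which leaves their counts less certain.

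**Figure D1:**
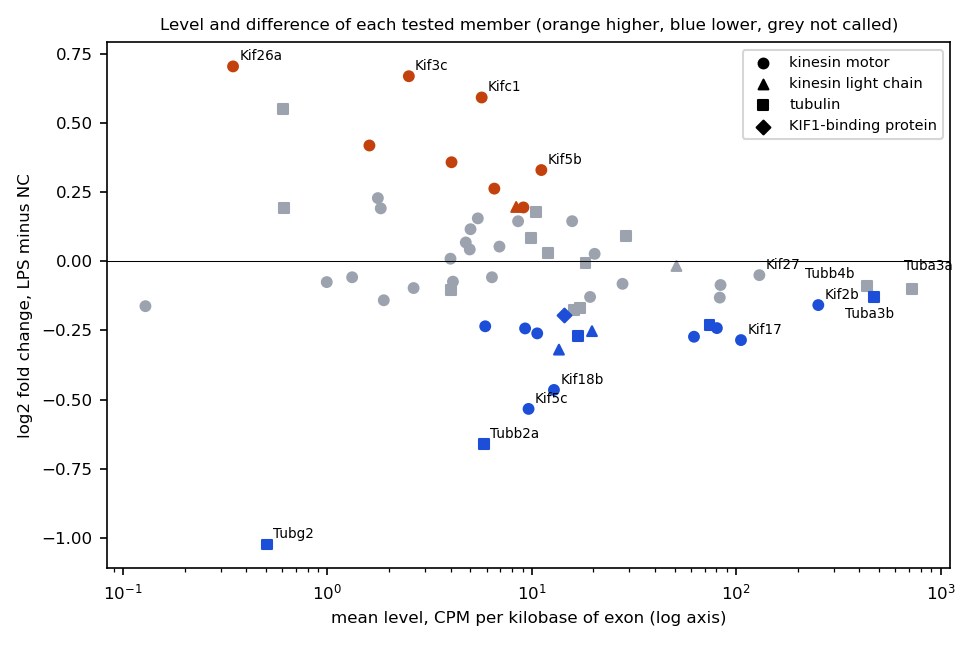
Mean level of each of the 62 tested members (x axis, CPM per kilobase of exon over 4 libraries, log axis) against its log2 fold change (y axis, LPS columns minus NC columns), with marker shapes for motors, light chains, tubulins and Kif1bp and colours for the call. The 12 members above 50 CPM per kilobase all lie below 0, and the members called higher reach no more than 11.1 CPM per kilobase. Other genes of like level were not compared.

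By the quasi-likelihood test of edgeR, 17 of the 62 members tested were lower and 9 higher in the LPS columns (adjusted p under 0.05, Benjamini-Hochberg over 20855 genes), and 36 were not called. Members were called in 41.9% of cases, against 31.5% of all genes tested. Members also had higher levels (median 38.7 CPM, against 8.07 CPM in all genes) and smaller SEs (median 0.073 against 0.132). The call rates were not compared at matched levels. Higher calls made up 15.2% and lower calls 16.3% of all genes. The median log2 fold change was -0.07 in members and 0.00225 in all genes, and the median absolute log2 fold change was 0.16 in members and 0.22 in all genes. Tubg2 was the only called member past an absolute log2 fold change of 1, a size that 5.91% of all genes reached with a call. The groups did not overlap in 45 of the 62 members, against 64.1% of all genes. Both LPS libraries lay below both NC libraries in 27 members and above them in 18, beside 32.0% and 32.1% of all genes. With library size as the only scaling, 13 members were higher and 12 lower, so that higher calls went from 34.6% to 52.0% of member calls and the member median to -0.0018. All genes moved the same way under that scaling, from 3169 higher and 3394 lower (48.3% higher) to 4207 higher and 2579 lower (62.0% higher). DESeq2 called 5 higher and 11 lower. Single libraries moved these counts as well, with 11 lower calls without LPS 1, 10 without NC 1, and 5 higher calls without NC 2.

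**Figure D2:**
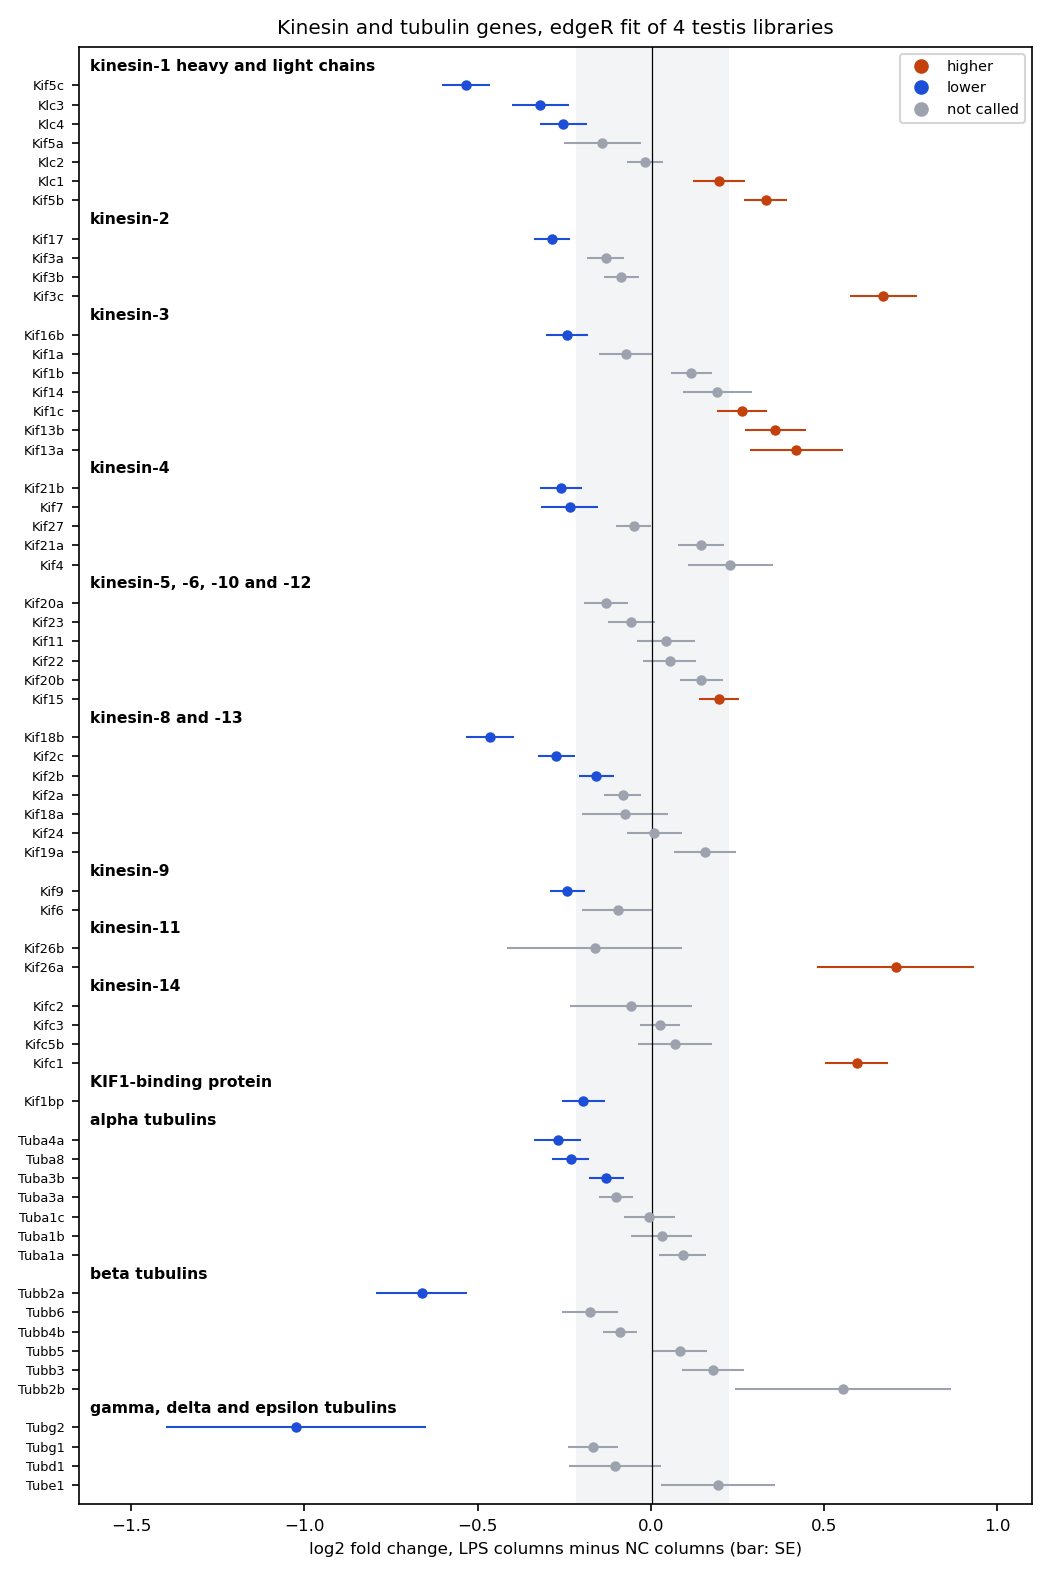
Log2 fold change (x axis, LPS columns minus NC columns, bars are the SE of the edgeR fit) of the 62 tested members, grouped by kinesin subfamily and tubulin class, with the middle 50% of all genes shaded and their median as a line. Higher and lower calls stand side by side in kinesin-1, kinesin-2 and kinesin-3, and no tubulin was called higher.

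Of the 12 members above 50 CPM per kilobase, 6 were called lower, 0 higher and 6 were not called. Of all genes tested, at any level, 16.3% were lower and 15.2% higher. The log2 fold change was negative in all 12, beside 10366 of all 20855 genes tested. With library size as the only scaling Kif27 and Klc2 turned positive. Whether other genes of like level differed in the same way was not tested. The 9 members called higher had a median level of 5.68 CPM per kilobase and a highest level of 11.1 CPM per kilobase, against a median of 14.3 CPM per kilobase in the 17 called lower. These levels are a description, since the same libraries give the level and the difference.

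Kinesin-1 motors, the main long-range cargo carriers, moved apart. Kif5c (chromosome 2, 49619298 to 49774778), best known as a neuronal heavy chain, had 51.0 and 61.6 CPM in the LPS columns and 82.0 and 80.7 CPM in the NC columns. Both LPS libraries were below both NC libraries, and the log2 fold change was -0.53 ± 0.07 (SE; edgeR, adjusted p = 1.29e-07). Kif5b (chromosome 18, 6201002 to 6242174), the heavy chain found in most cell types, had 86.9 and 96.6 CPM against 74.3 and 71.4 CPM, with no overlap, and a log2 fold change of 0.33 ± 0.06 (edgeR, adjusted p = 7.72e-05). As a result the order of these genes by counts was not the same in the groups. Within a library, the ratio of Kif5b to Kif5c counts was 1.70 and 1.57 in the LPS columns and 0.907 and 0.885 in the NC columns. This ratio does not depend on the scaling between libraries. It and the ratios of other members given below were chosen after the data were seen and restate the counts of the same libraries. Kif5a, another neuronal heavy chain, was not called (-0.14 ± 0.11).

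Of the 4 light chains, which link the heavy chains to cargo, 2 were lower, 1 was higher and 1 was not called. Among all genes, 16.3% were lower and 15.2% higher. Klc3, a light chain of spermatids that binds the outer dense fibres of the sperm tail, had 29.4 and 34.7 CPM against 42.9 and 36.7 CPM. Its groups did not overlap, but LPS 2 and NC 2 lay close together. The log2 fold change was -0.32 ± 0.08 (edgeR, adjusted p = 0.0029). DESeq2 did not call it (adjusted p = 0.0669), nor did edgeR without LPS 1 (log2 fold change -0.20, adjusted p = 0.101) or NC 1 (-0.19, adjusted p = 0.153), over a range of 6.64e-05 to 0.153. Klc3 overlaps Ercc2 on the opposite strand, whose counts were higher in the LPS columns (0.26 ± 0.07). Klc4 was lower, at 41.0 and 42.4 CPM against 51.1 and 48.2 CPM (-0.25 ± 0.07), a call absent in DESeq2 (adjusted p = 0.0715) and, in edgeR, without NC 1 (-0.20, adjusted p = 0.0955, range 0.00175 to 0.0955). Klc1, the light chain of neurons and many other cells, was higher, at 35.5 and 37.5 CPM against 32.4 and 31.2 CPM (0.20 ± 0.08; edgeR, adjusted p = 0.0426). Klc1 overlaps the opposite-strand gene Xrcc3, which was higher too (0.31 ± 0.12). The Klc1 call was absent in DESeq2 (adjusted p = 0.263), with no filter on low counts (adjusted p = 0.0578), and without LPS 2 (0.16, adjusted p = 0.232), NC 1 (0.23, adjusted p = 0.0793) or NC 2 (0.17, adjusted p = 0.203), with 0.00819 the lowest over its alternatives. Klc2, the most abundant light chain, was at 208 and 211 CPM against 214 and 210.0 CPM, and its 95% interval of the log2 fold change ran from -0.12 to 0.09.

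In kinesin-2, the motors of transport within cilia and flagella, Kif17 and Kif3c differed in opposite directions. Kif17 (chromosome 4, 138250435 to 138301967), whose CRE and X-box core are printed above, had 436 CPM in each LPS library and 551 and 510.5 CPM in the NC columns. The groups did not overlap, with a log2 fold change of -0.28 ± 0.05 (edgeR, adjusted p = 4.26e-05). Kif3c (chromosome 12, 3365132 to 3406494), which can take the place of Kif3b beside Kif3a, had 20.6 and 21.5 CPM against 13.4 and 13.1 CPM. Its log2 fold change of 0.67 ± 0.10 (edgeR, adjusted p = 8.91e-07) was among the highest of the members. Kif3c shares 39.6% of its 50-base words with other genes, mainly the opposite-strand gene 1110002L01Rik, which had 18.3 and 19.3 CPM against 13.8 and 12.1 CPM (0.53 ± 0.10). Without the strand setting of the counting, reads of these genes cannot be told apart.

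Kif3a and Kif3b form the main heterotrimeric kinesin-2 motor together with the adaptor Kifap3. Kif3a had 282 and 287 CPM against 302 and 321 CPM, and Kif3b had 456 and 460.4 CPM against 483 and 489 CPM. Neither group pair overlapped, but neither gene was called (-0.13 ± 0.05, edgeR adjusted p = 0.053, and -0.09 ± 0.05, edgeR adjusted p = 0.203). Kif3a passed with the replicate number as a block (adjusted p = 0.0416) and in limma-voom (adjusted p = 0.0406, range over alternatives 0.0406 to 0.386). Kifap3 was not called (-0.10 ± 0.06). The count ratio of Kif3a to Kif3b was 0.618, 0.623, 0.625 and 0.656 in LPS 1, LPS 2, NC 1 and NC 2. The ratio of Kif3c to Kif3a was 0.0731 and 0.0749 in the LPS columns and 0.0442 and 0.0407 in the NC columns.

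**Figure D3:**
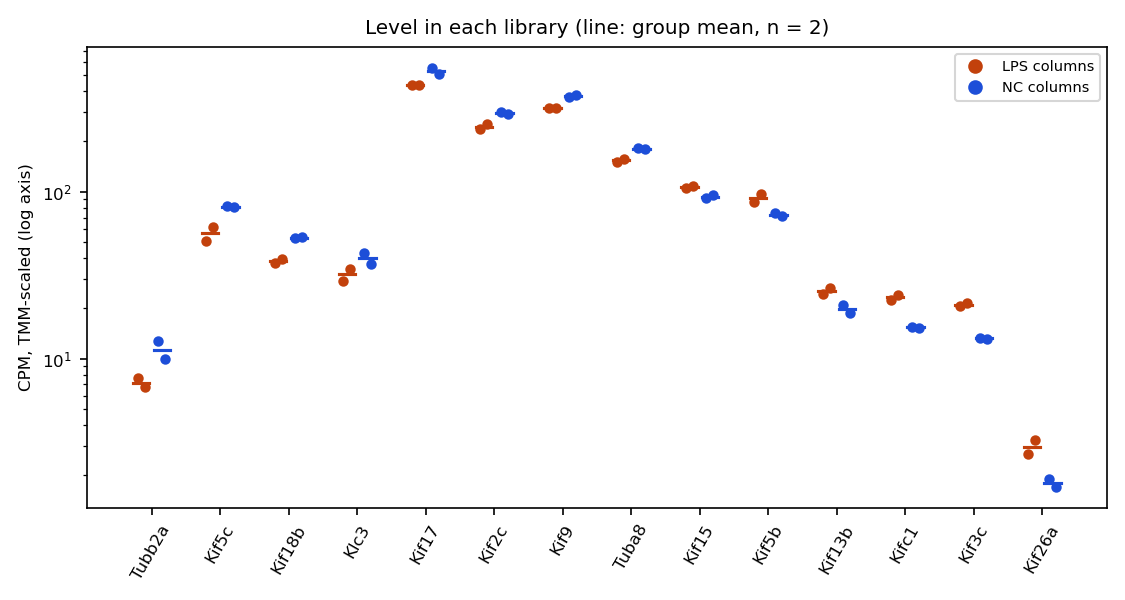
Level in each library (y axis, TMM-scaled CPM, log axis) of 14 members called lower (left, Tubb2a to Tuba8) or higher (right, Kif15 to Kif26a), with LPS libraries in orange, NC libraries in blue and group means as lines. In each of the 14 genes both LPS libraries lie on the same side of both NC libraries. The genes were picked from the called members, so this separation is no separate result, and 64.1% of all genes had groups apart. Kif13a, called higher with overlapping groups, is not shown.

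Kinesin-3 motors, which carry vesicles and organelles, were called higher in 3 of 7 members and lower in 1, beside 15.2% and 16.3% of all genes. DESeq2 called 1 of the 7 higher and 1 lower. Kif13b, a transporter of membrane proteins, had 24.4 and 26.6 CPM against 20.8 and 18.9 CPM (0.36 ± 0.09; edgeR, adjusted p = 0.00173), and its groups were apart. Over the 10 alternatives its log2 fold change ran from 0.29 to 0.44, and its weakest call only just passed the threshold. Kif1c, which moves vesicles between Golgi and endoplasmic reticulum, had 49.7 and 54.4 CPM against 45.9 and 40.7 CPM (0.26 ± 0.07). Kif13a, an endosome motor, had 10.8 and 14.5 CPM against 10.9 and 7.85 CPM, so that its groups overlapped (0.42 ± 0.14; edgeR, adjusted p = 0.0157). Single libraries decided the calls of Kif1c and Kif13a. Without LPS 2, Kif1c was at 0.20 (adjusted p = 0.075) and Kif13a at 0.20 (adjusted p = 0.34). Without NC 2 they were at 0.18 (adjusted p = 0.128) and 0.21 (adjusted p = 0.297), and DESeq2 gave adjusted p = 0.063 and 0.189, over ranges of 0.000833 to 0.128 and 7.84e-05 to 0.34.

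Kif16b, the motor of early endosomes, was the kinesin-3 member that was lower, at 75.7 and 77.7 CPM against 91.4 and 90.1 CPM (-0.24 ± 0.06; edgeR, adjusted p = 0.00172). The libraries of each group differed by less than 3 CPM. Kif1b was at 92.3 and 91.3 CPM against 84.8 and 84.5 CPM and was not called (0.12 ± 0.06), except with library size as the only scaling (adjusted p = 0.0155, range 0.0155 to 0.36). Kif1a, an axonal motor, and Kif14, a cytokinesis motor, were not called (-0.07 ± 0.08 and 0.19 ± 0.10), and Kif14 passed without LPS 1 (0.34, adjusted p = 0.0173, range 0.0173 to 0.848).

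Among kinesin-4 members, 2 of 5 were lower and 0 higher, beside 16.3% and 15.2% of all genes. Kif21b, a motor that slows microtubule growth, had 112 and 123 CPM against 149 and 133 CPM (-0.26 ± 0.06; edgeR, adjusted p = 0.000962), a call lost without NC 1 (-0.17, adjusted p = 0.0734, range 4.03e-05 to 0.0734). Kif7, a Hedgehog pathway protein of the cilium tip, had 26.4 and 23.4 CPM against 28.9 and 29.8 CPM (-0.23 ± 0.08; edgeR, adjusted p = 0.0277). Kif7 overlaps the opposite-strand genes Ticrr (0.22 ± 0.11) and 9330171B17Rik (-0.10 ± 0.08), which were not called. The Kif7 call was lost with library size as the only scaling (adjusted p = 0.121), with no filter on low counts (adjusted p = 0.0503), with DESeq2 (adjusted p = 0.238), and without LPS 2 (-0.15, adjusted p = 0.309), NC 1 (-0.25, adjusted p = 0.069) or NC 2 (-0.21, adjusted p = 0.134), with 0.0114 the lowest. Kif27 had 553 and 585 CPM against 586 and 592 CPM (-0.05 ± 0.05, 95% interval -0.15 to 0.05). Kif21a and the chromosome motor Kif4 were not called, at 0.15 ± 0.07 and 0.23 ± 0.12, and Kif21a passed with library size as the only scaling (adjusted p = 0.015, range 0.015 to 0.462).

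Of 6 tested spindle and cytokinesis motors of the kinesin-5, -6, -10 and -12 groups, 1 was higher and 0 lower (16.7% called, against 31.5% of all genes). Kif15, which holds spindle poles apart beside Kif11, was higher, at 106 and 108 CPM against 91.6 and 95.2 CPM (0.20 ± 0.06; edgeR, adjusted p = 0.00875). The Kif15 call was lost without NC 1 (0.17, adjusted p = 0.0886, range 0.000711 to 0.0886). Kif11, the motor that separates spindle poles, was at 24.6 and 24.0 CPM against 22.9 and 24.3 CPM (0.04 ± 0.08), and Kif23, a cytokinesis motor, at 49.1 and 49.7 CPM against 49.3 and 53.6 CPM (-0.06 ± 0.07). Their groups overlapped, and the 95% intervals ran from -0.13 to 0.21 and from -0.19 to 0.08. Kif20a, Kif20b and Kif22 were not called, at -0.13 ± 0.06, 0.15 ± 0.06 and 0.05 ± 0.08. Kif20b passed with library size as the only scaling (adjusted p = 0.0127) and without LPS 2 (0.23, adjusted p = 0.00878, range 0.00878 to 0.657).

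Microtubule-depolymerizing kinesins of the kinesin-8 and -13 groups were lower in 3 of 7 members and higher in 0 (42.9% called, against 31.5% of all genes, of which 16.3% were lower). Kif18b (chromosome 11, 102905529 to 102925124), which works with Kif2c at the ends of astral microtubules, had 37.6 and 39.4 CPM against 52.8 and 53.5 CPM. The libraries of each group lay close together and the groups apart, with a log2 fold change of -0.47 ± 0.07 (edgeR, adjusted p = 1.53e-06). Kif2c, the depolymerase of centromeres, had 238 and 253 CPM against 300.0 and 293 CPM (-0.27 ± 0.05; edgeR, adjusted p = 0.000102). Kif2b had 519 and 551 CPM against 602 and 591 CPM (-0.16 ± 0.05; edgeR, adjusted p = 0.0155). The Kif2b call was lost with library size as the only scaling (-0.09, adjusted p = 0.114) and without LPS 1 (-0.11, adjusted p = 0.138) or NC 1 (-0.14, adjusted p = 0.0953, range 0.00476 to 0.138). Kif2a, Kif18a, Kif24 and Kif19a were not called, with log2 fold changes from -0.08 to 0.16. Kif24, which holds back cilium formation, stood at 0.01 ± 0.08, and Kif18a, which aligns chromosomes, at -0.07 ± 0.12.

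Kif9, a kinesin-9 motor of the sperm flagellum, had 316 and 317 CPM against 368 and 381 CPM. Its LPS libraries differed by about 1 CPM and lay below both NC libraries (-0.24 ± 0.05; edgeR, adjusted p = 0.000334). Kif6, the other kinesin-9, was not called (-0.10 ± 0.10). In kinesin-14, the minus-end directed motors, Kifc1 (chromosome 17, 33875666 to 33890661), which bundles spindle microtubules and is found at the spermatid acrosome and manchette, had 22.6 and 24.0 CPM against 15.5 and 15.3 CPM. The log2 fold change was 0.59 ± 0.09 (edgeR, adjusted p = 3.41e-06), with no overlap. Kifc5b, a gene that shares 37.4% of its 50-base words with Kifc1 and other genes, had 12.8 CPM in each LPS library and 12.2 CPM in each NC library (0.07 ± 0.11). The count ratio of Kifc1 to Kifc5b was 1.77 and 1.88 against 1.28 and 1.26, and the split of reads between these copies is uncertain. Kifc2 and the membrane motor Kifc3 were not called, at -0.06 ± 0.18 and 0.03 ± 0.06.

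In kinesin-11, Kif26a, a kinesin without ATPase activity that restrains GDNF-Ret signalling, had 2.69 and 3.25 CPM against 1.91 and 1.71 CPM (53 and 58 counts against 42 and 35; 0.71 ± 0.23; edgeR, adjusted p = 0.0157). DESeq2 made no call (adjusted p = 0.252), and edgeR made none without LPS 2 (0.57, adjusted p = 0.134) or NC 2 (0.63, adjusted p = 0.0866, range 0.00989 to 0.252). Kif26b was not called (-0.16 ± 0.25). Kif1bp had 64.8 and 65.7 CPM against 74.8 and 74.5 CPM (-0.19 ± 0.06; edgeR, adjusted p = 0.0138). The Kif1bp call was lost with library size as the only scaling (adjusted p = 0.0924), with DESeq2 (adjusted p = 0.106), and without LPS 1 (-0.18, adjusted p = 0.0684), NC 1 (-0.18, adjusted p = 0.0911) or NC 2 (-0.20, adjusted p = 0.0634), with 0.00867 the lowest. Kif1bp overlaps the opposite-strand gene 4933428P19Rik, which was lower too (-0.32 ± 0.08).

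**Figure D4:**
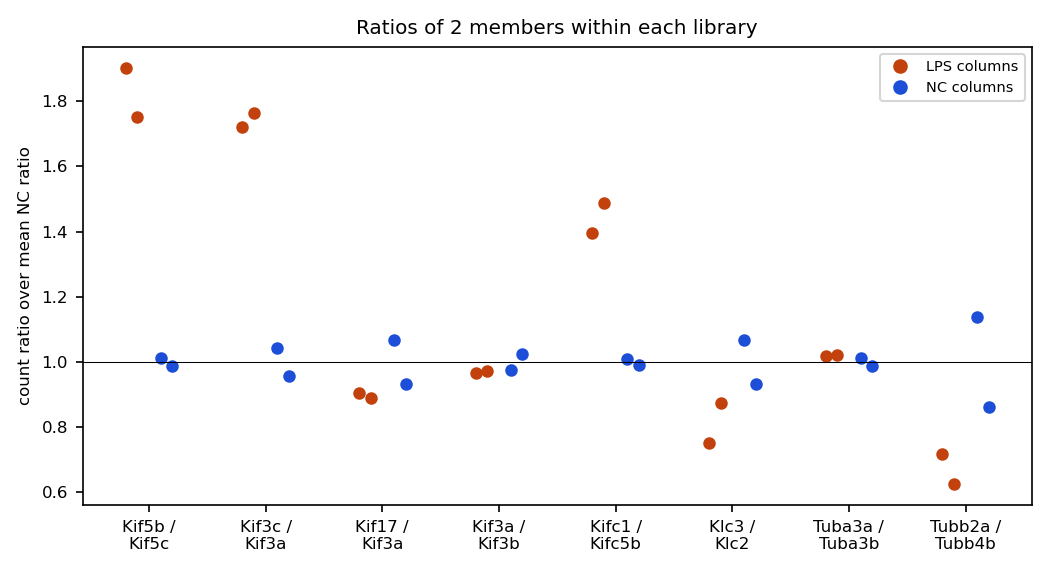
Ratio of the counts of 2 members within each library, divided by the mean ratio of the NC libraries (y axis, linear), for 8 gene pairs with LPS libraries in orange and NC libraries in blue. The Kif5b to Kif5c, Kif3c to Kif3a and Kifc1 to Kifc5b ratios lie well above 1 in both LPS libraries, and the Tuba3a to Tuba3b ratio lies near 1 in all 4. The pairs were chosen after the data were seen, and their ratios restate the counts behind the fold changes.

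Of the 17 tubulins tested, 5 were lower (29.4% called, against 31.5% of all genes) and 0 higher, and 0 were higher in limma-voom, in DESeq2 or at an unadjusted p under 0.05 in edgeR. Alpha-tubulins were lower in 3 of 7 members. Tuba8 had 151 and 157 CPM against 182 and 180.2 CPM (-0.23 ± 0.05; edgeR, adjusted p = 0.00102), with the groups apart. Tuba4a, an alpha-tubulin made without the C-terminal tyrosine of most others, had 52.1 and 60.4 CPM against 68.5 and 66.9 CPM (-0.27 ± 0.07; edgeR, adjusted p = 0.00222), a call lost without LPS 1 (-0.16, adjusted p = 0.121, range 5.86e-05 to 0.121). Tuba4a overlaps the opposite-strand gene Stk16, which was not called (0.05 ± 0.07). The testis pair Tuba3a and Tuba3b differed little. Tuba3b had 784 and 815 CPM against 854 and 893 CPM (-0.13 ± 0.05; edgeR, adjusted p = 0.0472), and Tuba3a had 1034 and 1076 CPM against 1119 and 1143 CPM (-0.10 ± 0.05; edgeR, adjusted p = 0.124). The Tuba3b call was lost with library size as the only scaling (-0.07, adjusted p = 0.274), with DESeq2 (adjusted p = 0.0768), and without LPS 1 (-0.10, adjusted p = 0.192) or NC 2 (-0.09, adjusted p = 0.272), with 0.0168 the lowest. Tuba3a passed in limma-voom (adjusted p = 0.0487, range 0.0487 to 0.551).

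The count ratio of Tuba3a to Tuba3b was 1.32 and 1.32 in the LPS columns and 1.31 and 1.28 in the NC columns. These genes share 35.3% and 29.5% of their 50-base words with other genes, chiefly each other, so their split is uncertain. The widely expressed Tuba1a, Tuba1b and Tuba1c were not called, at 0.09 ± 0.07, 0.03 ± 0.09 and -0.0045 ± 0.07, and they share 75.5%, 75.1% and 52.7% of their words. Tuba3a and Tuba3b made up 88.7% to 89.0% of alpha-tubulin transcripts per length in all 4 libraries. Tuba1a, Tuba1b and Tuba1c together made up 4.80% and 4.49% in the LPS columns and 4.17% and 4.14% in the NC columns, while Tuba8 made up 5.28% and 5.26% against 5.82% and 5.62%.

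Of 6 beta-tubulins tested, 1 was lower and 0 higher (16.7% called, against 31.5% of all genes). Tubb2a (chromosome 13, 34074301 to 34078008), a beta-tubulin abundant in the nervous system whose CRE is printed above, had 7.61 and 6.72 CPM against 12.7 and 9.99 CPM. The groups were apart, although the NC libraries differed by more than the LPS libraries, and the log2 fold change was -0.66 ± 0.13 (edgeR, adjusted p = 0.000147). Its neighbour Tubb2b, which shares sequence with it, had 1.47 and 1.29 CPM against 0.909 and 0.975 CPM and was not called (0.55 ± 0.31; edgeR, adjusted p = 0.183). Tubb2a shares 49.6% and Tubb2b 36.9% of their 50-base words with other genes, so counts of the pair are uncertain. Tubb4b had 878 and 889 CPM against 921 and 959 CPM (-0.09 ± 0.05, 95% interval -0.19 to 0.01), and it made up 90.6% to 91.5% of beta-tubulin transcripts per length. Tubb4b overlaps the opposite-strand gene Fam166a, which was lower (-0.22 ± 0.05). Tubb5, Tubb6 and the neuronal and Sertoli cell isotype Tubb3 were not called, at 0.08 ± 0.08, -0.18 ± 0.08 and 0.18 ± 0.09. Tubb3 passed with library size as the only scaling (adjusted p = 0.0387, range 0.0387 to 0.49).

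**Figure D5:**
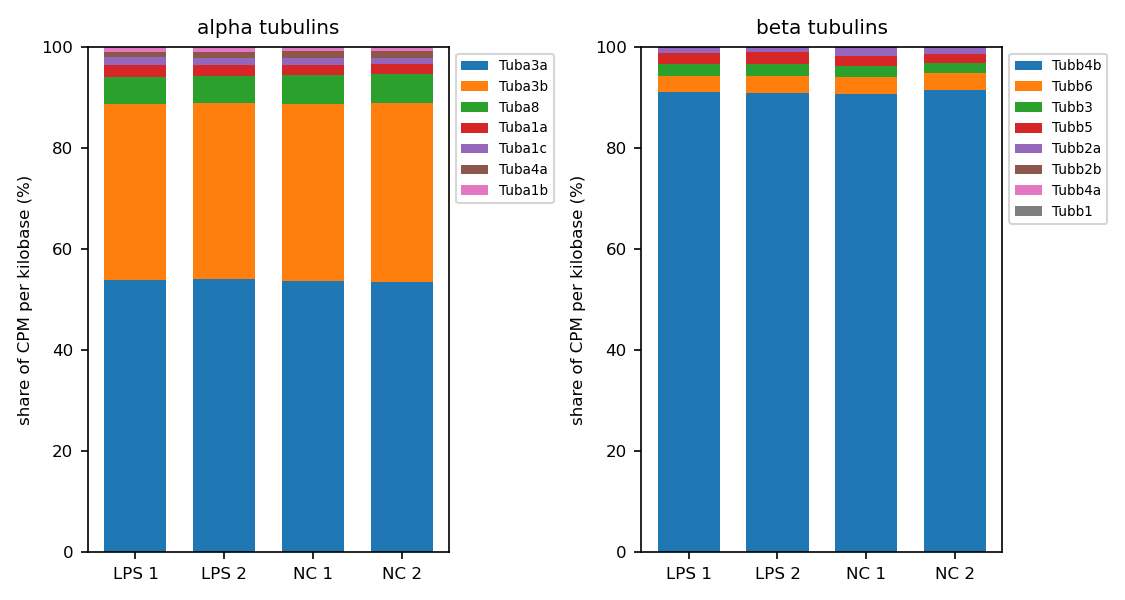
Share of each isotype in the summed level of the alpha-tubulins (left) and beta-tubulins (right), in percent of CPM per kilobase of exon (y axis, from 0 to 100), with a bar for each library. Tuba3a and Tuba3b fill 88.7% to 89.0% of the alpha-tubulin bars and Tubb4b 90.6% to 91.5% of the beta-tubulin bars, with no visible change between the LPS and NC columns.

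Among gamma-, delta- and epsilon-tubulins, Tubg2, a gamma-tubulin best known from brain, was lower in the fit, with 12 and 10 counts against 33 and 18 (-1.02 ± 0.38; edgeR, adjusted p = 0.0347). This call rested on low counts. It was lost with library size as the only scaling (adjusted p = 0.0524), in limma-voom (adjusted p = 0.0567), in DESeq2 (adjusted p = 0.367), and on leaving out LPS 1 (-1.09, adjusted p = 0.0926), LPS 2 (-0.97, adjusted p = 0.132) or NC 1 (-0.57, adjusted p = 0.516), with 0.0191 the lowest. Tubg1, the gamma-tubulin of most cells, had 35.9 and 37.7 CPM against 42.1 and 40.4 CPM and was not called (-0.17 ± 0.07; edgeR, adjusted p = 0.075). Tubd1 and Tube1 were not called, at -0.10 ± 0.13 and 0.19 ± 0.16.

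Genes that work with kinesins and tubulins were read from lists named for their functions. Of 26 tubulin-modifying enzymes, all of them tested, 12 were lower and 5 higher, with a median log2 fold change of -0.17. This was 65.4% called, against 31.5% of all genes (16.3% lower and 15.2% higher), with no matching for level. DESeq2 called 8 of them lower and 1 higher. Ttl, the ligase that restores the C-terminal tyrosine of alpha-tubulin, was higher, at 2.59 and 2.58 CPM against 1.27 and 1.02 CPM (1.16 ± 0.26; edgeR, adjusted p = 0.000573). The following were chosen after their values were seen. Vash2, which removes that tyrosine, had 1066 and 893 counts against 1775 and 1415 (-0.52 ± 0.07), while its relative Vash1 was higher (0.63 ± 0.19). The acetyltransferase Atat1 was lower (-0.39 ± 0.08). Of the deacetylases, Hdac6 was higher (0.30 ± 0.07) and Sirt2 lower (-0.22 ± 0.06). Of 13 Ttll genes, whose family holds ligases that add glutamate or glycine chains, 6 were lower, 1 was higher and 6 were not called. Ttll9 fell by 0.40 ± 0.05, Ttll12 was higher (0.43 ± 0.13), and Ttll1 and Ttll5 were not called (0.0086 ± 0.07 and 0.03 ± 0.05). DESeq2 called 5 of the Ttll genes lower and 0 higher, so Ttll12 had no call there. At most 1 of Ttl, Vash1 and Hdac6 was called higher by DESeq2.

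In the other lists, kinesin partners and related motors were higher in 3 and lower in 2 of 8, where Cenpe, the kinesin-7 of kinetochores that carries no Kif symbol, had 5364 and 4441 counts against 6787 and 6791 (-0.30 ± 0.05; it too was named after its values were seen). The gamma-tubulin ring list had 0 of 8 called by edgeR, limma-voom or DESeq2 and a median of 0.11. At an unadjusted p under 0.05 in edgeR, 1 of its genes was higher and 1 lower, and these were Tubgcp6 (0.26 ± 0.11) and Mzt2 (-0.16 ± 0.07), named after their values were seen. Tubulin folding factors were higher in 1 and lower in 2 of 16 (median -0.0021), and microtubule-associated and severing proteins were higher in 5 and lower in 6 of 27 tested (median 0.0024). Over all partner genes, 42.4% of 85 tested were called, beside 41.9% of the members and 31.5% of all genes. These shares too were not matched for level.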

How the data were processed

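The authors deposited raw read counts per gene for 4 libraries. Per the submitters' processing notes, the tools were STAR 2.5.3a for build mm10, Trimmomatic 0.36, Subread 1.5.1 with featureCounts, DESeq and edgeR 3.12.1. The annotation release and strand setting are not given in the sources used. Per the labels, RNA was taken up in TRIzol and a stranded mRNA kit was used.

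The whole table was fitted with edgeR 4.0.16 (filterByExpr, TMM factors, quasi-likelihood test, Benjamini-Hochberg over 20855 genes, called at adjusted p under 0.05), and member rows were read from it. CPM uses the TMM-scaled totals of the genes tested. Residual degrees of freedom were 2 and prior ones 34, and the SE is that implied by the F statistic. On simulated data of this design (20855 genes), 89.5% of 200 genes changed 2-fold were called, with 16 false calls. The simulation used the same dispersion for every gene. Smaller changes, such as those of most members, were not simulated, so their recovery is not known. Alternatives used DESeq2 1.42.0, limma 3.58.1, other scalings, no filter, a replicate block and each library left out. Same-numbered libraries did not deviate together (r = 0.0155 over genes). The replicates of each group differed by more than sampling noise (chi-square per degree of freedom 2.31 and 2.20).

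Members and lists were chosen with earlier results of these data known. Named were all tested tubulins, up to 12 called kinesins or light chains in each direction with a mean of at least 1 CPM, the most abundant member of each subfamily, and a set of motors known from germ cells and spindles. The other members were added so that each is accounted for. Partner genes were named when called with a log2 fold change of 1 or more in size, or as stated. Words of 50 bases came from GENCODE M21 transcripts.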

Additional observations from a re-analysis of the deposited data

How the results depend on the processing

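Of the 26 called members, 12 kept their call and direction under all 10 alternatives (Kif3c, Kifc1, Kif5b and Kif13b higher; Tubb2a, Kif5c, Kif18b, Kif17, Kif2c, Kif9, Kif16b and Tuba8 lower), 14 lost it under at least 1, and none changed sign under these alternatives. The 10 alternatives did not test how reads were assigned to genes. Of the 12, Kif3c, Kif5b, Kif17 and Tuba8 overlap exons of another gene. Kif3c, Kifc1, Tubb2a and Tuba8 share over 10% of their 50-base words with other genes. DESeq2 ended 10 calls. It called 5 members higher and 11 lower, and 1367 of all genes higher and 1743 lower. Leaving out a library, where the lone library of its group is assumed to vary like the other group, gave 5 to 10 members higher and 10 to 15 lower, and 2255 to 2730 of all genes higher and 2425 to 2962 lower. With the replicate number as a block, 9 members were higher and 18 lower, and 3376 and 3594 of all genes; the numbers are not known to pair the animals, and Kif3a was the member that gained a call. Over all genes, library size as the only scaling moved the median log2 fold change from 0.00225 to 0.0657. Limited to the 30 tested members without exon overlap and with at most 10% shared 50-base words, an alternative added after the data were seen, 4 were higher and 8 lower (40.0% called), fewer because fewer genes were counted. With 2 libraries a group, differences in members of low counts (Tubg2, Kif26a, Tubb2b, Tube1) had SEs of 0.16 to 0.38.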

Other observations

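The rows that the symbol pattern matched but that are no members gave these values. Kif16bos, an opposite-strand gene beside Kif16b, had 79 and 76 counts against 130 and 123 (LPS columns first, log2 fold change -0.53 ± 0.16), in the same direction as Kif16b. Kif4-ps had 480 and 454 counts against 441 and 408 (0.32 ± 0.09), more counts than Kif4 itself in every library. Tubb4b-ps1 had 1251 and 936 counts against 1458 and 1314 and was not called (-0.17 ± 0.07), and Tubb4b shares 41.3% of its 50-base words with other genes, mainly its pseudogenes. Tubb4b-ps2 had 16 and 17 counts against 24 and 23, Kifc5c-ps had 8 and 1 against 6 and 7, and Kif22-ps had 0 in all 4 libraries.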
